A study of Drosophila melanogaster with 33 samples.

Results

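Total RNA of fruit fly embryos at syncytial blastoderm was compared with total RNA at nuclear cycles (NC) 9-10. The comparison rests on 4 of the 33 libraries of the series: the poly(A) inputs, 2 per stage, taken by stage and fraction as labelled. All embryos were of the Oregon R strain and received an injection of 5-ethynyl uridine (5-EU), which cells build into the RNA they make from then on, so there was no uninjected control. Both NC 9-10 preparations and the first syncytial preparation had 250 mM 5-EU, and the second syncytial preparation had 50 mM, so that dose and preparation cannot be told apart there. Embryos were staged by their shape, and an input is the RNA of a preparation before labelled RNA was pulled down on streptavidin beads. The labels do not say how many embryos a preparation pooled or whether the preparations came from separate collections, so p-values measure only the spread between these libraries, which may be technical.

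The early fly embryo is a syncytium in which nuclei divide in a shared cytoplasm on RNA and protein laid down by the mother. The first zygotic genes to be transcribed are mostly short and carry few introns, and they include the genes that count the X chromosomes, pattern the axes and prepare the furrows that later enclose each nucleus in a cell. Maternal RNAs are removed in waves, first by decay factors that the mother supplies and later by factors made from the zygotic genome. In a bulk sample such as these, fewer cells of a type and less RNA per cell cannot be told apart.

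Levels are given in ppm, the deposited value per gene (reads per kilobase on an unknown scale of each library, less the 1 that had been added) scaled to 1000000 per library and then by the median of ratios over the 7 poly(A) inputs of the 4 stages. They are per length, so that levels of different genes can be set side by side. The libraries were estimated to hold 15.3 to 21.2 M reads (M, 1000000), and 1 read in a gene of 1 kb stood for 0.106 to 0.163 ppm. The libraries of a stage were not interchangeable: across 7512 genes, Pearson's r was 0.952 between the NC 9-10 inputs and 0.959 between the syncytial inputs, and no gene had the same nonzero value in both. The first and second preparations of each stage, in order of deposit, differed in the same genes. The difference first minus second correlated across genes at 0.669 between NC 9-10 and syncytial blastoderm, at 0.522 between NC 9-10 and cellular blastoderm and at 0.645 between syncytial and cellular blastoderm. It went with transcript length. Its median was -0.25 (log2) at NC 9-10 and -0.27 at syncytial blastoderm among the shortest genes (1494 genes with an exonic length of 31 to 1114 bases), and 0.10 and 0.40 among the longest (1494 genes, 4033 to 69810 bases). The NC 7-9 input resembled the first NC 9-10 input (r = 0.995) more than the second (0.957).

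Of 7512 genes with at least 1 ppm in at least 2 of the 7 inputs, 192 (2.56%) were higher and 585 (7.79%) were lower at syncytial blastoderm, 777 (10.3%) in all (limma on log2(ppm + 1), Benjamini-Hochberg adjusted p below 0.05). The median log2 difference was 3.17 over the higher genes, with a range of 0.80 to 7.20, and -1.78 over the lower genes, with a range of -4.14 to -0.80. Over all genes tested it was 0.03. The added 1 ppm understates the change of genes with low levels. The higher genes made up 0.0737% and 0.0636% of the summed levels in the NC 9-10 libraries and 0.911% and 1.18% in the syncytial libraries. The lower genes went from 7.1% and 8.39% to 2.08% and 2.24%. The groups did not overlap, syncytial above NC 9-10, in 2460 genes (32.7%), and the reverse in 1935 (25.8%), so that a lack of overlap alone is no distinction. With 2 libraries a group, an exact permutation test of a single gene cannot go below p = 0.333.

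**Figure D1:**
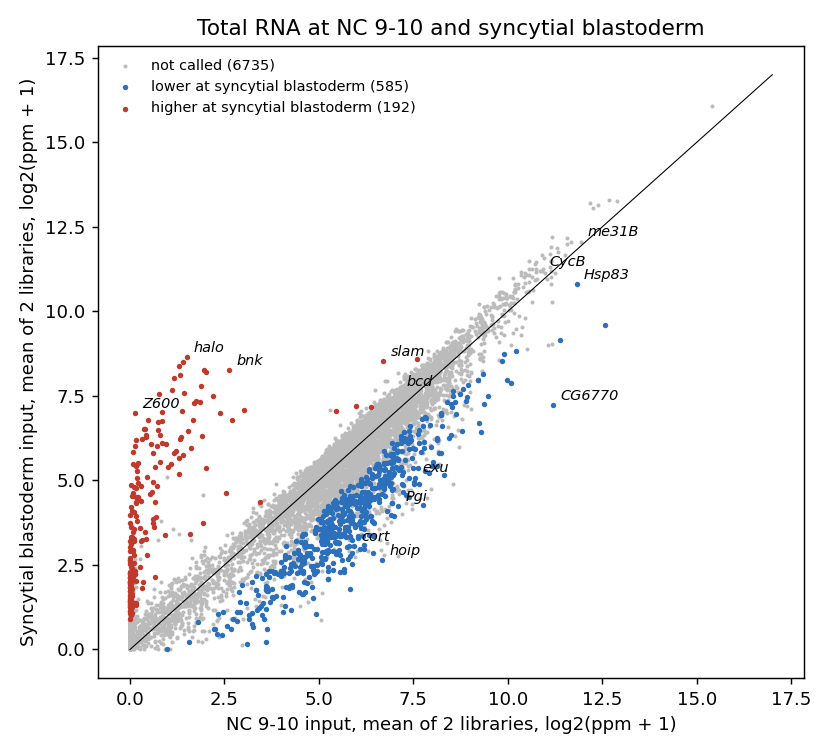
Mean input level at NC 9-10 (x axis) and at syncytial blastoderm (y axis), both as log2(ppm + 1), for the 7512 genes tested, with the 192 higher genes in red, the 585 lower genes in blue and the line of equal levels in black. Most red points lie at the left edge, since 139 of the 192 were below 1 ppm in both NC 9-10 libraries, while the blue points start from levels up to those of Hsp83.

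In poly(A) level relative to the rest of the library, the rise was a start from near 0 for most of its genes and the fall was partial. Amounts of RNA per embryo were not measured. Of the 192 higher genes, 44 were listed at 0 in both NC 9-10 libraries, 139 were below 1 ppm in both, and 5 were at 10 ppm or more in both. Their median level was 0.168 and 0.0841 ppm at NC 9-10 and 11.5 and 13.1 ppm at syncytial blastoderm. Of the 585 lower genes, 13 were below 1 ppm in both syncytial libraries, and their median level went from 46.7 and 58.6 ppm to 13.5 and 14.8 ppm. When the first syncytial library was set against the first NC 9-10 library and the second against the second, 182 of the 192 higher genes rose at least 2-fold in both pairs, as 219 of all genes tested did. Of the 585 lower genes, 528 fell at least 2-fold in both pairs, as 792 of all genes did. The genes were called on these same 4 libraries, so these counts follow in part from the choice and are no separate check.

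**Figure D2:**
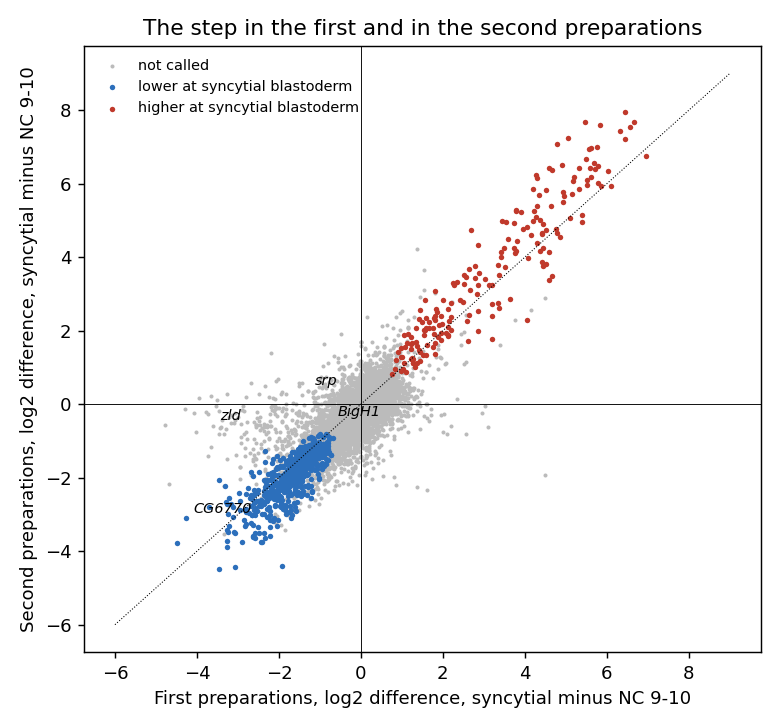
The log2 difference, syncytial minus NC 9-10, in the first preparations (x axis) and in the second (y axis) for the 7512 genes tested, with higher genes in red, lower genes in blue and the dotted line of equal differences. Past 2-fold in both pairs are 182 of the 192 red and 528 of the 585 blue genes, which were chosen on these same libraries. Not all points lie near the dotted line: Not11, which is blue, is at -1.91 in the first and -4.39 in the second pair. The grey zld is at -3.61 and -0.58.

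The counts moved with the libraries used. Without the first NC 9-10 library 100 genes were higher and 221 lower, and without the second 75 and 24. The first and the second syncytial library were also left out in turn. Without the second, the NC 9-10 and syncytial libraries left all had 250 mM 5-EU. The second cellular blastoderm input, with 50 mM, was still in that fit and helped to set the spread. No gene called in the comparison changed sign in any of these fits. That was fixed in advance, since the groups did not overlap in any of the 192 higher or 585 lower genes. Of the 82 called genes named by rule for this comparison, 33 kept the call in all 4 fits, among them halo, Z600, nullo, Kr, kni, eve, prd, zen, sna, sisA, hoip, Mis12 and U2A. With first and second preparations as a replicate block, a fit chosen after the data were seen, 358 genes (4.77%) were higher and 1152 (15.3%) lower, and 774 of the 777 genes were among them. On the values as deposited, with no rescaling, 322 genes were higher and 365 lower.

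Genes of cellularisation and of the slowing of the nuclear cycles rose together. All 7 members tested, of 8 listed, were higher, against 2.56% of all genes tested. Their median log2 difference was 6.01, against 0.03 over all genes tested. The largest rise of the comparison was that of halo (FBgn0001174, 2L:1517533-1518148, minus strand, annotation BDGP6.54), a short gene without introns whose product directs the transport of lipid droplets. Its level was 2.74 and 0.925 ppm at NC 9-10 and 327 and 476 ppm at syncytial blastoderm, a log2 difference of 7.20 ± 0.38 (SE; adjusted p = 0.0015). Both syncytial libraries were far above both NC 9-10 libraries, and the cellular blastoderm libraries were higher again, at 2550.1 and 2057 ppm. Z600, also called frühstart, encodes an inhibitor of mitotic cyclin activity that helps to pause the cycles (FBgn0004052, 3L:15509061-15509513, plus strand). It was at 0 and 0.21 ppm at NC 9-10 and at 124 and 129 ppm at syncytial blastoderm (log2 difference 6.86 ± 0.22, adjusted p = 0.000911).

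nullo and bnk encode proteins that stabilise the furrows and time their constriction. nullo was at 1.5 and 0.112 ppm at NC 9-10 and at 120.2 and 94.6 ppm at syncytial blastoderm (log2 difference 6.01 ± 0.42, adjusted p = 0.00286). It stood at 82.1 and 79.8 ppm at cellular blastoderm, below both syncytial values. bnk was at 8.91 and 1.48 ppm, then at 398 and 214 ppm (5.88 ± 0.69, adjusted p = 0.00995), and went on to 1686 and 1629 ppm. In both, the first NC 9-10 library was the higher one. dunk, a further cellularisation gene, was at 4.13 and 1.61 ppm at NC 9-10 and at 277 and 331.7 ppm at syncytial blastoderm, with a log2 difference of 6.38 ± 0.42 (adjusted p = 0.0023).

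A different course was seen in slam and trbl, which the mother also supplies. slam, whose product brings membrane and myosin to the furrows, was at 120.2 and 86.3 ppm at NC 9-10 and at 366 and 369 ppm at syncytial blastoderm, with a log2 difference of 1.84 ± 0.21 (adjusted p = 0.00962). trbl, whose product promotes the destruction of String, was at 54.2 and 69.3 ppm and then at 142 and 152 ppm (1.25 ± 0.19, adjusted p = 0.0181). Both genes were among the 5 higher genes with at least 10 ppm in both NC 9-10 libraries. The others, named after their values were seen, were Elba2, Sep5 and Sry-delta. Elba2, a subunit of the ELBA insulator complex, was at 178 and 205 ppm and then at 362 and 400.1 ppm (log2 difference 0.99 ± 0.20, adjusted p = 0.0409). Sep5, a septin, was at 41.5 and 44.5 ppm and then at 93.0 and 169 ppm (1.52 ± 0.31, adjusted p = 0.041).

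**Figure D3:**
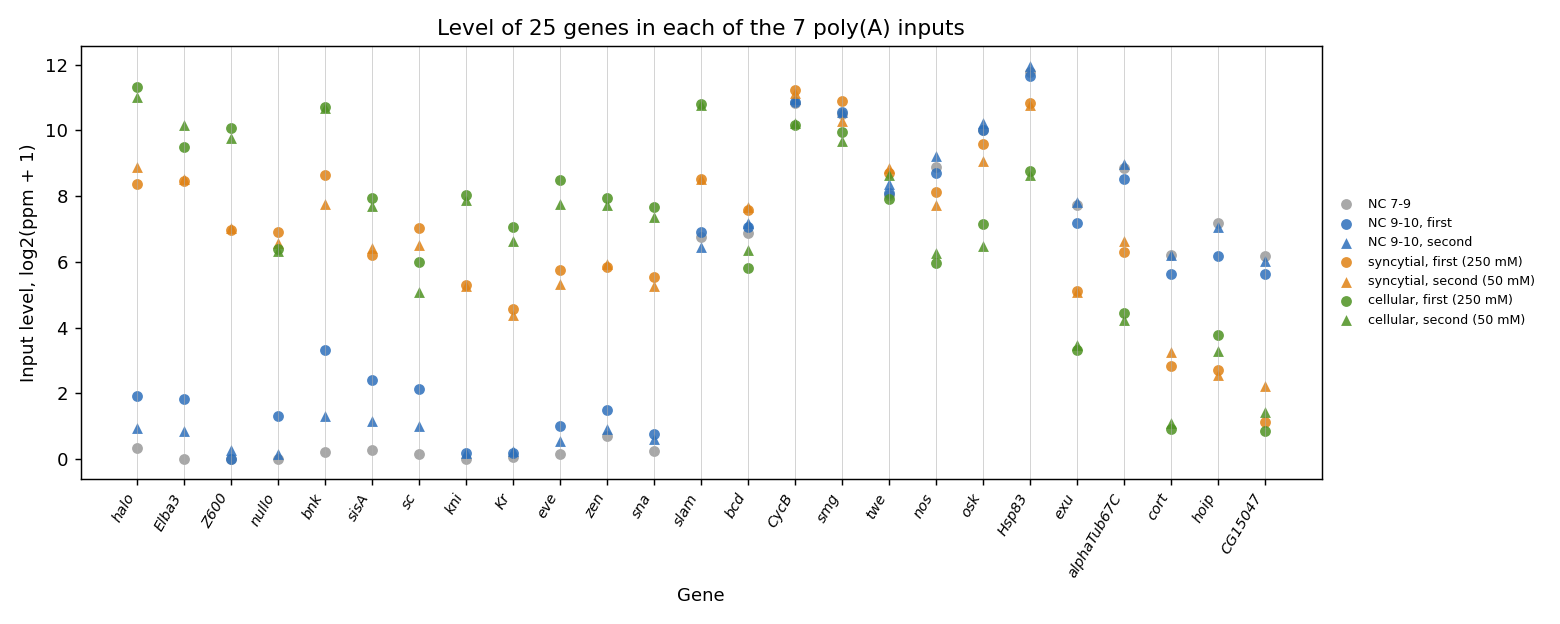
Level of 25 genes, as log2(ppm + 1), in each of the 7 poly(A) inputs, with circles for first and triangles for second preparations and a colour per stage. From halo to sna the NC 9-10 points sit near the bottom and the syncytial points well above them, slam starts from a maternal level, bcd to osk did not pass the test, and Hsp83 to CG15047 sit lower at syncytial blastoderm.

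The genes that count X chromosomes and read the sex of the embryo rose, apart from the one they control. Of 6 sex determination genes tested, 5 were higher (83.3%, against 2.56% of all genes tested) and 0 lower. Their median log2 difference was 4.45. sisA, an X-linked numerator gene (FBgn0003411, X:11321579-11322357, minus strand), was at 4.34 and 1.22 ppm at NC 9-10 and at 73.2 and 84.9 ppm at syncytial blastoderm (4.54 ± 0.44, adjusted p = 0.00735). sc, also a numerator gene, was at 3.33 and 0.992 ppm, then at 131 and 89.7 ppm (5.22 ± 0.51, adjusted p = 0.00734), and at cellular blastoderm at 62.1 and 32.8 ppm. upd1, a ligand of the JAK/STAT pathway, had a log2 difference of 4.55 ± 0.23 (adjusted p = 0.00135), and dpn, which acts against the X-linked signals, one of 4.37 ± 0.23 (adjusted p = 0.00135). msl-2, the male-specific protein of dosage compensation, was at 1.87 and 2.15 ppm and then at 7.32 and 11.9 ppm (adjusted p = 0.038). Sxl, the switch gene of the pathway, which the mother also supplies, did not pass. It was at 109 and 153 ppm at NC 9-10 and at 104 and 50.4 ppm at syncytial blastoderm (adjusted p = 0.358).

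Along the head-to-tail axis the upper tiers of the segmentation cascade rose while its last tier was hardly measured. Of 20 gap, terminal and head genes, 10 were higher (50.0%, against 2.56% of all genes tested) and 0 lower. Their median log2 difference was 2.30. kni, a trunk gap gene, was at 0.134 and 0.136 ppm at NC 9-10 and at 37.9 and 37 ppm at syncytial blastoderm (5.08 ± 0.20, adjusted p = 0.000911). Kr was at 0.128 and 0.172 ppm and then at 22.4 and 19.9 ppm (4.27 ± 0.24, adjusted p = 0.00162), and tll, the posterior and head terminal gene, at 0.645 and 0.0967 ppm and then at 30.7 and 36.3 ppm (4.68 ± 0.28, adjusted p = 0.00167). D, a SOX family gene needed for segmentation, had the largest log2 difference of the list, 5.74 ± 0.23 (adjusted p = 0.000911). hb, a gap gene with a maternal supply, was at 230.4 and 180 ppm and then at 247 and 95.1 ppm, and did not pass (adjusted p = 0.689).

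Of the 8 pair-rule genes, which divide the trunk into stripes, 5 were higher (62.5%, against 2.56% of all genes tested) and 0 lower. Their median log2 difference was 3.44. eve was at 1 and 0.473 ppm at NC 9-10 and at 53 and 39.2 ppm at syncytial blastoderm (4.76 ± 0.35, adjusted p = 0.00312). prd was listed at 0 in both NC 9-10 libraries and stood at 7.79 and 8.53 ppm at syncytial blastoderm (adjusted p = 0.00484). run and odd did not pass: run was at 1.61 and 0.363 ppm and then at 57.4 and 9.13 ppm (adjusted p = 0.108), with the first preparation the higher one at both stages. In the fit with the replicate block run and odd passed as well (adjusted p = 0.0041 and 0.0086). That made 7 of 8, against 4.77% of all genes higher in that fit. Of the 15 segment polarity and Hox genes 10 were tested. The Hedgehog receptor gene ptc was the only one that passed (10.0%, against 2.56% of all genes tested). It was at 0.102 and 0.0516 ppm and then at 6.62 and 10.5 ppm (3.12 ± 0.38, adjusted p = 0.0107). wg, the Wnt ligand of the segment border, was at 0.0482 and 0.0325 ppm and then at 0.93 and 1.26 ppm, and did not pass (adjusted p = 0.189). The Hox genes Antp, Ubx and abd-A were at 0.317 ppm or less in all 4 libraries, a level that a few reads decide. Dfd, also a Hox gene, was at 0.103 and 0.0347 ppm and then at 0.594 and 0.435 ppm, and did not pass (adjusted p = 0.59).

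Dorsoventral genes rose at both poles of that axis. Of 32 tested, 15 were higher (46.9%, against 2.56% of all genes tested) and 0 lower (median log2 difference 1.78). On the dorsal side zen, a homeobox gene of the amnioserosa (FBgn0004053, 3R:6752864-6754194, minus strand), was at 1.78 and 0.899 ppm at NC 9-10 and at 56.1 and 59.9 ppm at syncytial blastoderm (4.68 ± 0.26, adjusted p = 0.00162). The BMP ligands dpp and scw and their processing and transport partners tld and tsg all passed, with log2 differences of 3.05, 5.30, 4.63 and 4.37. On the ventral side sna, the repressor that defines the mesoderm, was at 0.676 and 0.513 ppm and then at 45 and 37.1 ppm (4.72 ± 0.24, adjusted p = 0.00135). Ilp4, an insulin-like gene of the mesoderm, rose most in the list, from 0.35 and 0.236 ppm to 73.4 and 109 ppm (6.13 ± 0.26, adjusted p = 0.001). twi, the activator beside sna, did not pass: it was at 0.416 and 0.0401 ppm and then at 18.1 and 4.12 ppm (adjusted p = 0.0759). The same held for the BMP antagonist sog, at 0.0727 and 0.0163 ppm and then at 18.2 and 4.98 ppm (adjusted p = 0.0593). In both genes the first syncytial library was the higher one, and both passed with the replicate block (adjusted p = 0.00594 for twi and 0.00722 for sog). With that block 18 of the 32 genes were higher and 1 was lower, against 4.77% and 15.3% of all genes tested. The lower one was the GATA cofactor gene ush, at 9.21 and 7.26 ppm and then at 2.68 and 2.33 ppm (-1.39 log2, adjusted p = 0.0307, against 0.106 without the block).

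Some Bearded and Enhancer of split genes, small genes that modulate or answer Notch signalling, rose. Of 8 tested, 5 were higher (62.5%, against 2.56% of all genes tested) and 0 lower (median log2 difference 2.71). Tom was at 0.585 and 0.296 ppm and then at 18.2 and 28.5 ppm (4.05 ± 0.38, adjusted p = 0.00668), and E(spl)m4-BFM at 2.04 and 0.876 ppm and then at 39.9 and 31.2 ppm (3.93 ± 0.48, adjusted p = 0.011). E(spl)m7-HLH was listed at 0 in both NC 9-10 libraries and stood at 5.25 and 4.37 ppm at syncytial blastoderm (adjusted p = 0.00995). BobA also passed, but it has near-identical copies that may share its reads, and its value is uncertain.

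The list with the most rising genes was that of short early zygotic genes of less known function, a name that does not hold for every member. Of 35 tested, 30 were higher (85.7%, against 2.56% of all genes tested) and 0 lower, with a median log2 difference of 4.68. Their summed level was 583.5 and 196.2 ppm at NC 9-10, of which the maternally supplied Bacc held 348 and 43.8 ppm and slam 120.2 and 86.3 ppm, and 3779 and 4613 ppm at syncytial blastoderm. Elba3 and Bsg25A (Elba1), subunits of the ELBA insulator complex, were at 2.53 and 0.789 ppm and at 1.98 and 0.984 ppm at NC 9-10. They rose to 354 and 366 ppm (7.17 ± 0.40, adjusted p = 0.00162) and to 258 and 294 ppm (6.83 ± 0.26, adjusted p = 0.000911). CG13427 was at 1.6 and 1.29 ppm and then at 247 and 426 ppm (7.06 ± 0.29, adjusted p = 0.000944), and it reached 3645 and 3702 ppm at cellular blastoderm, above halo. CG14317, CG34214, CG13000, CG8960, CG13711, CG15382, CG14014 and CG14915 complete the 15 largest rises, with log2 differences of 6.13 to 6.88. Symbols of the CG kind, given to genes not yet named, were held by 63 of the 192 higher genes (32.8%) and by 37.6% of all genes tested. The gene slam, listed also under cellularisation, is in this list under its CG number. Its exonic length is 4117 bases, against a median of 2055 over all genes tested.

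**Figure D4:**
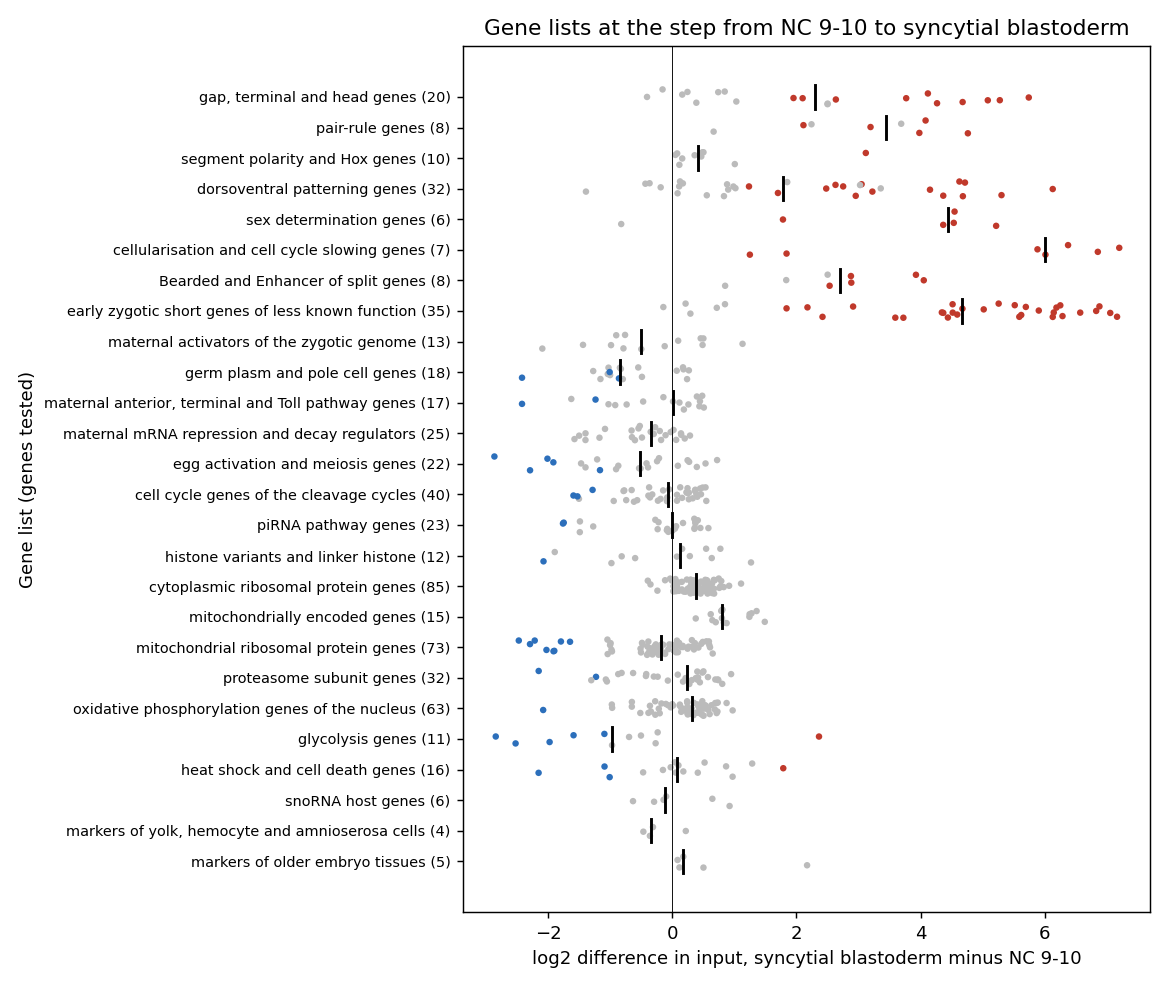
log2 difference of each tested member of 26 gene lists, with higher genes in red, lower genes in blue, uncalled genes in grey and a black bar at the list median. The 8 zygotic lists at the top hold no blue point, and of the lists below them glycolysis and heat shock and cell death hold 1 red point each. Blue points are seen in the lists from which lower genes are named, and there are none for the maternal activators, the decay regulators, the cytoplasmic ribosomal protein, mitochondrially encoded and snoRNA host genes or the markers of other cells.

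The 15 largest falls held no gene of the patterning lists. CG15047 fell most, from 48.1 and 63.5 ppm at NC 9-10 to 1.19 and 3.66 ppm at syncytial blastoderm (log2 difference -4.14 ± 0.44, adjusted p = 0.00813). hoip, which encodes a protein of the small ribonucleoproteins of splicing and ribosome assembly, was at 71.8 and 132 ppm and then at 5.58 and 4.9 ppm (-3.98 ± 0.36, adjusted p = 0.00604). U2A, a protein of the U2 particle of the spliceosome, was at 46.7 and 45.9 ppm and then at 4.61 and 3.21 ppm (-3.28 ± 0.24, adjusted p = 0.00312). Mis12, a kinetochore subunit, was at 51.8 and 63.5 ppm and then at 4.52 and 4.96 ppm (-3.35 ± 0.22, adjusted p = 0.0023). Xpac, of nucleotide excision repair, fell by 3.27 ± 0.30 (log2; adjusted p = 0.00634), and Not11, a subunit of the CCR4-NOT deadenylase complex, by 3.15 ± 0.58 (adjusted p = 0.0297). GstE6, ksh and the 7 genes CG31075, CG6770, CG17202, CG34039, CG8993, CG9547 and CG15916 complete the 15, at log2 differences of -3.74 to -3.12. In CG6770 the NC 9-10 libraries were far apart, at 3832 and 860.1 ppm, against 199 and 99.5 ppm at syncytial blastoderm (-3.68 ± 0.80, adjusted p = 0.0479).

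Germ plasm and maternal patterning RNAs were mostly still present. Of 18 germ plasm and pole cell genes, 3 were lower (16.7%, against 7.79% of all genes tested) and 0 higher (median log2 difference -0.84). exu, whose product localises bcd RNA in the oocyte, fell most, from 145 and 225 ppm to 33.3 and 32.5 ppm (-2.42 ± 0.26, adjusted p = 0.00826). Hsp83, a chaperone RNA known to be cleared from the soma and kept in pole cells, was among the most abundant falling RNAs, at 3213 and 4015 ppm and then at 1832 and 1736 ppm (-1.01 ± 0.20, adjusted p = 0.0364). tud, a scaffold of the germ plasm, was at 142 and 146 ppm and then at 81.7 and 76.1 ppm (-0.86 ± 0.18, adjusted p = 0.0407). nos, the posterior determinant, was at 419 and 594 ppm and then at 277 and 212 ppm, and did not pass (-1.04 ± 0.26, adjusted p = 0.0715). It passed with the replicate block (adjusted p = 0.0327), where 8 of the 18 genes and 15.3% of all genes were lower. osk, the organiser of germ plasm, was at 1039.6 and 1198 ppm and then at 766 and 537 ppm (-0.80 ± 0.31, adjusted p = 0.208).

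Of 17 maternal anterior, terminal and Toll pathway genes, 2 were lower (11.8%, against 7.79% of all genes tested) and 0 higher (median log2 difference 0.01). They were exu and fs(1)N, an eggshell protein that anchors the terminal signal, which fell by 1.24 ± 0.24 (log2; adjusted p = 0.0355). bcd, the anterior determinant, was at 133 and 144 ppm at NC 9-10 and at 191 and 204 ppm at syncytial blastoderm and did not pass (0.51 ± 0.23, adjusted p = 0.259). It was at 55.4 and 81.4 ppm at cellular blastoderm.

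Some RNAs of meiosis and egg activation fell. Of 22 genes tested, 5 were lower (22.7%, against 7.79% of all genes tested) and 0 higher (median log2 difference -0.52). cort, a female meiotic activator of the anaphase-promoting complex, was at 48 and 72.8 ppm and then at 6.06 and 8.62 ppm (-2.87 ± 0.31, adjusted p = 0.00813). alphaTub67C, the maternal alpha-tubulin, was at 368 and 507 ppm and then at 78.3 and 97.5 ppm (-2.29 ± 0.24, adjusted p = 0.00788). fs(1)Ya, a nuclear envelope protein needed for the first embryonic division, fell by 2.01 ± 0.31 (log2; adjusted p = 0.0189), Mos, a meiotic kinase, by 1.92 ± 0.31 (adjusted p = 0.0202) and mtrm, an inhibitor of Polo in the oocyte, by 1.17 ± 0.23 (adjusted p = 0.0385). gnu and plu, both subunits that activate the PAN GU kinase, did not pass, with gnu at 528 and 788 ppm and then at 418 and 489.96 ppm (adjusted p = 0.313). With the replicate block 9 of the 22 genes were lower and 1 higher, against 15.3% and 4.77% of all genes.

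Most genes of the cleavage cycles did not pass. Of 40 tested, 3 were lower and 0 higher (median log2 difference -0.07), close to the share of all genes that were lower. mei-41, the ATR checkpoint kinase, fell by 1.59 ± 0.25 (log2; adjusted p = 0.0181), RnrS, the small subunit of ribonucleotide reductase, by 1.53 ± 0.28 (adjusted p = 0.0277) and Mcm3, of the replicative helicase, by 1.29 ± 0.19 (adjusted p = 0.0159). CycB was at 1868 and 1997 ppm and then at 2404 and 2245 ppm (0.27 ± 0.18, adjusted p = 0.411). The phosphatases that drive entry into mitosis, stg and twe, had log2 differences of 0.08 ± 0.22 (adjusted p = 0.846) and 0.55 ± 0.28 (adjusted p = 0.309).

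Of 23 piRNA pathway genes 2 were lower, shu by 1.75 ± 0.22 (log2; adjusted p = 0.0114) and cuff by 1.76 ± 0.33 (adjusted p = 0.0319), and 0 higher. That share, 8.7%, is near the 7.79% of all genes that were lower. Among 12 histone variants and chromatin assembly genes, cid, the centromeric histone H3 variant, was the only one that passed. It was at 106 and 95.3 ppm and then at 25.6 and 20.9 ppm (-2.08 ± 0.23, adjusted p = 0.00872). The share of the list that was lower, 8.33%, is also near the 7.79% of all genes. BigH1, the embryonic linker histone, was at 941 and 292 ppm and then at 563 and 212 ppm, so that the groups overlapped (adjusted p = 0.619). With the replicate block 4 of the 17 maternal anterior, terminal and Toll pathway genes and 6 of the 40 cleavage cycle genes were lower. So were 4 of the 23 piRNA pathway genes and 3 of the 12 histone genes, while 1 piRNA pathway gene and 2 histone genes were higher. Over all genes tested 15.3% were lower and 4.77% higher with the block.

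Some enzymes of glycolysis fell. Of 11 genes, 5 were lower (45.5%, against 7.79% of all genes tested) and 1 higher (9.09%, against 2.56%), with a median log2 difference of -0.97. Pgi, the isomerase at the head of the pathway, was at 113 and 158 ppm and then at 17 and 18.5 ppm (-2.85 ± 0.27, adjusted p = 0.00682), and Tpi at 262 and 259 ppm and then at 54.2 and 36.3 ppm (-2.53 ± 0.26, adjusted p = 0.00788). Gapdh2, Pgk and PyK fell by 1.98, 1.59 and 1.09 (log2). ImpL3, the lactate dehydrogenase, was the higher one, at 0.554 and 0.16 ppm and then at 5.8 and 6.03 ppm (2.36 ± 0.24, adjusted p = 0.00777). Hex-A, Pfk, Gapdh1, Pglym78 and Eno did not pass.

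Some genes of mitochondria and protein turnover were lower, at shares above or below that of all genes, and the counts moved with the replicate block. Of 73 mitochondrial ribosomal protein genes 8 were lower (11.0%, against 7.79% of all genes tested) and 0 higher, led by mRpL38 at -2.47 ± 0.34 (log2; adjusted p = 0.0139) and mRpL22 at -2.22 ± 0.25 (adjusted p = 0.00872). Of 32 proteasome genes 2 were lower (6.25%), Rpn11 by 2.15 ± 0.24 (adjusted p = 0.00872) and Rpn1 by 1.23 ± 0.18 (adjusted p = 0.017). Of 63 nuclear genes of oxidative phosphorylation 1 was lower (1.59%), UQCR-C2, by 2.08 ± 0.23 (adjusted p = 0.00908). With the block 12 mitochondrial ribosomal protein genes were lower and 2 higher, and 7 proteasome genes were lower and 2 higher. For oxidative phosphorylation 4 genes were lower and 5 higher. The block made 15.3% of all genes tested lower and 4.77% higher. Among 16 heat shock and cell death genes the small heat shock gene Hsp26 was at 1799.7 and 3581 ppm and then at 584 and 555 ppm (-2.16 ± 0.34, adjusted p = 0.0195). Hsp60A fell by 1.09 ± 0.20 (adjusted p = 0.0285), and Hsp83 is given above. skl, an activator of cell death, was listed at 0 in both NC 9-10 libraries and stood at 1.97 and 3.02 ppm at syncytial blastoderm (adjusted p = 0.0159).

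None of 85 cytoplasmic ribosomal protein genes, 15 mitochondrially encoded genes, 25 regulators of maternal mRNA repression and decay or 6 snoRNA host genes passed in limma's fit. At an unadjusted p below 0.05 there were 8, 0, 1 and 1 of them, while 1719 of all genes tested (22.9%) were below it. With the replicate block 6 of the ribosomal protein genes were higher, 5 of the decay regulators lower and 1 of the snoRNA hosts higher. Of all genes tested 4.77% were higher and 15.3% lower in that fit. The ribosomal protein genes had a median log2 difference of 0.38, which was -0.03 on the values as deposited, and the direction of such a list depends on the scaling: the median of all genes was 0.03 here, -0.37 as deposited and -0.33 when scaled on ribosomal protein and proteasome genes. Relative to the median of all genes the ribosomal protein median was above 0 under each of them. A change of scale moves all genes of a library nearly alike, so this could hardly have differed between scalings. RpS20 was at 4291 and 5481 ppm and then at 6694 and 10489 ppm (0.79 ± 0.35, adjusted p = 0.256). The mitochondrially encoded genes had a median of 2.11 in the first pair of preparations and of -0.31 in the second. The decay regulators me31B and smg, a DEAD-box repressor and the Smaug protein that recruits deadenylases, had log2 differences of 0.14 ± 0.25 (adjusted p = 0.74) and 0.02 ± 0.27 (adjusted p = 0.969), and both changed sign with the scaling.

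The maternal activators of the zygotic genome gave no call in 13 genes by limma, and for some of them the libraries disagreed. At an unadjusted p below 0.05 there were 2, against 22.9% of all genes tested. With the replicate block 1, nej, was lower, against 15.3% of all genes. zld, the pioneer factor Zelda (FBgn0259789), was at 454 and 10.0 ppm at NC 9-10 and at 36.3 and 6.37 ppm at syncytial blastoderm, so that the first libraries were far above the second at both stages (-2.10 ± 1.89, adjusted p = 0.538). Its exonic length of 10605 bases puts it among the longest genes. nej, the CBP coactivator, was at 289 and 21.6 ppm and then at 88.7 and 8.93 ppm (adjusted p = 0.618). Clamp, a zinc finger protein that opens chromatin, was at 165 and 181 ppm and then at 240.2 and 246 ppm without overlap, but did not pass (0.49 ± 0.19, adjusted p = 0.209). Levels of zld and nej at this step cannot be given from these libraries beyond each library's own value, and the part of transcript length in the disagreement was not tested.

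The called genes can also be followed in the libraries before and after the step. These are a description, since those libraries took part in the filter on low values and in the scaling, and the cellular inputs also in setting the spread. Of the 192 higher genes 187 would have passed the filter without the cellular inputs and 5 passed only through them, as 656 of the 7512 genes did, while all 585 lower genes would have passed. In the NC 7-9 input, which enters neither group, the 192 higher genes made up 0.0546% of the library and had a median level of 0 ppm. In the cellular blastoderm inputs they made up 4.27% and 3.85% and had medians of 98.1 and 82.1 ppm. All 192 were higher in the mean of the cellular inputs than at NC 7-9, as were 3963 of the 7512 genes tested, with a median log2 difference of 6.23 against 0.15. The 585 lower genes made up 8.57% at NC 7-9 and 0.836% and 0.698% at cellular blastoderm. Of them, 7 were above their NC 7-9 level at cellular blastoderm, and their median log2 difference between those stages was -2.62. In the labelled fraction of NC 7-9, 29 of the 192 higher genes were at least 2-fold above the input, among 68 of all genes tested.

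**Figure D5:**
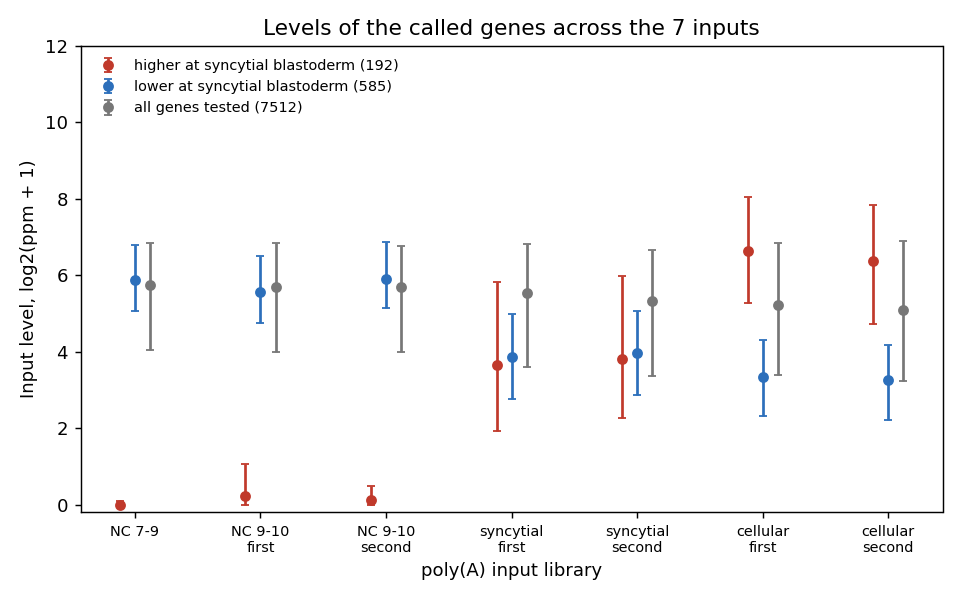
Median level, as log2(ppm + 1), of the 192 higher genes (red), the 585 lower genes (blue) and all 7512 genes tested (grey) in each of the 7 poly(A) inputs, with bars from the lower to the upper quartile. The red medians are 0.22 and 0.12 at NC 9-10 and 3.64 and 3.82 at syncytial blastoderm, and their difference was used to choose the genes, while the NC 7-9 and cellular points entered the choice only through the filter, the scaling and, for the cellular inputs, the spread.

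The rRNA-depleted inputs of both stages, 1 library each and therefore without a test, gave like values. The median log2 difference was 3.15 over the 192 higher genes, -1.89 over the 585 lower genes and 0.16 over all genes tested. These libraries closely resemble the poly(A) inputs on which the genes were chosen (correlations below). The medians therefore follow in part from that choice and are no separate check. halo was at 1.01 ppm at NC 9-10 and at 380.3 ppm at syncytial blastoderm, nullo at 0.275 and 134 ppm, exu at 269 and 41.6 ppm and hoip at 177 and 7.29 ppm. zld was at 11.7 and 39.7 ppm, so that its difference had the opposite sign to that in the poly(A) inputs, as did that of BigH1, at 268 and 549.5 ppm. The titles give the rRNA-depleted NC 9-10 input the name of the first poly(A) preparation, but its values correlated with the second at r = 0.996 and with the first at 0.950. At syncytial blastoderm r was 0.989 with the first and 0.963 with the second.

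The structure of the called genes was read from the BDGP6.54 annotation, and no test was run on it. Of 191 annotated higher genes 65 (34.0%) had no intron, against 58 of 580 lower genes (10.0%) and 816 of 7469 genes tested (10.9%). Their median exonic length was 1590 bases, that of the lower genes 1896.5 and that of all genes tested 2055. Of the higher genes 16 (8.38%) lay on the X chromosome, of the lower genes 118 (20.3%) and of all genes tested 1315 (17.6%). Non-coding genes numbered 8 among the higher, 3 among the lower and 299 among all genes tested. Shorter genes were also the ones that the second preparations gave at higher levels, at both stages. The difference between the stages went with length too. Its median (log2) was 0.09 among the shortest 1494 genes and -0.22 among the longest 1494. Of the shortest genes 4.42% were higher and 7.03% lower, and of the longest 1.74% and 4.82%. The part of length in the calls was not tested.

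Follicle cell markers, which would report ovarian tissue, were at or below 0.719 ppm in all 4 libraries, and 11 of 18 were at 0 in all of them, the chorion and vitelline membrane genes Cp36, Cp38, Vm26Aa, Vm26Ab and Vm32E included. Of 20 markers of older embryo tissues 7 were at 0 in all 4 libraries. Their summed level was 0.797 and 0.186 ppm at NC 9-10 and 5.85 and 3.71 ppm at syncytial blastoderm, most of it from Obp99a, which was listed at 0 at NC 9-10 and stood at 4.44 and 2.73 ppm (adjusted p = 0.0775). Markers of yolk, hemocyte and amnioserosa cells summed to 117.9 and 145.3 ppm and then to 105.5 and 100.5 ppm, most of it from the maternally supplied crq, while srp, the GATA factor of yolk and blood cells, was at 8.18 and 0.277 ppm and then at 2.74 and 0.641 ppm. The pole cell genes nos, pgc, gcl, osk and vas, maternal RNAs at these stages, were at 124 ppm or more in all 4 libraries, and none passed without the replicate block. With it nos and vas did (adjusted p = 0.0327 and 0.00741), vas at 267 and 393 ppm and then at 124 and 143 ppm (-1.27 log2).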

How the data were processed

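RNA was taken from staged, 5-EU-injected Oregon R embryos with Trizol and sequenced after the SMARTer Stranded RNA-Seq kit, per the labels' protocols. The submitters' processing notes name STAR, HTSeq and dm6, with no version. The annotation, filters, strand mode and scale used were not given in the sources used here. The authors deposited values that they name RPKM. As the values show, these are reads per kilobase on an unknown scale of each library, with 1 added: low values minus 1 fall on whole steps, within 0.02, in 75.6% to 81.2% of cases in the poly(A) inputs. Column totals of the 4 libraries were 15.2 to 33.2 M (M, 1000000). Reads of overlapping genes or near copies may be shared.

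After subtracting 1, libraries were scaled to 1000000 and by the median of ratios over the 7 poly(A) inputs, and genes at 1 ppm or more in at least 2 of 7 were tested as log2(ppm + 1) with limma 3.58.1 in R 4.3.3 (mean per stage, mean trend, two-sided, Benjamini-Hochberg). Residual degrees of freedom were 3, from the 3 stages with 2 libraries, so cellular blastoderm helped to set the spread. Eluates and flow-throughs share preparations with the inputs and stayed out. Gene symbols or synonyms in BDGP6.54 matched most genes (16330 of 16407, 99.53%). Alternatives were other pseudocounts, filters, scalings, libraries and the flow-through.

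Members and gene lists were chosen with earlier results of these data known. Named genes were the 15 largest rises and 15 largest falls with a mean of at least 5 ppm, up to 4 called members per list with the smallest adjusted p, the 2 highest members where fewer than 2 passed, and a fixed set of maternal and zygotic genes; other list members were named after their values were seen. Figures were drawn with matplotlib 3.10.9.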

Additional observations from a re-analysis of the deposited data

How the results depend on the processing

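No gene called in the comparison changed sign under any alternative except the flow-through, where 3 did. In fits that left out 1 library, or changed the pseudocount or filter, this could not occur. The groups did not overlap in any called gene. The 777 calls were 465 with no filter, 1296 when scaled on ribosomal protein and proteasome genes, 511 with the 4 libraries alone, 55 in the flow-through and 1510 with first and second preparations as a replicate block. The 192 higher genes were 296 at a pseudocount of 0.1, 124 at 5, 322 as deposited, 8 in the flow-through and 358 with the replicate block. The 585 lower genes were 317 with no filter, 365 as deposited, 1093 scaled on ribosomal protein and proteasome genes, 313 with the 4 libraries alone, 47 in the flow-through and 1152 with the replicate block. Leaving out 1 library gave 99 to 321 calls, 75 to 101 higher and 24 to 221 lower, and the lone library left in a group was assumed to vary like the others. The other alternatives, a filter of 5 ppm, scaling by the total, no mean trend and all 21 poly(A) libraries with and without the preparation as a random effect (correlation 0.434), gave 142 to 196 higher and 487 to 647 lower genes. No paired analysis was possible from the labels because they give no number that pairs a syncytial with an NC 9-10 preparation; the replicate block follows the order of deposit and was chosen after seeing the data. Of 82 called named genes, halo, hoip, CG14915 and CG17202 kept the call under every alternative.

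Among the named genes, signs turned in uncalled ones alone. On the values as deposited the log2 difference was -0.27 for me31B, -0.39 for smg, -0.25 for Df31, -0.00212 for ATPsynC, -0.27 for COX5A, -0.14 for CycB and -0.33 for stg. Scaled on ribosomal protein and proteasome genes it was -0.25 for me31B, -0.37 for smg, -0.23 for Df31, -0.25 for COX5A, -0.12 for CycB and -0.32 for stg, and scaled by the total alone -0.0428 for smg. In the flow-through it was -0.16 for smg, -0.0208 for Df31, 0.67 for Uhg4, -0.0915 for stg and 0.27 for plu. Leaving out 1 library gave ranges that crossed 0 for lola (-0.51 to 0.27), me31B (-0.0637 to 0.35), smg (-0.29 to 0.33), Df31 (-0.14 to 0.46), COX5A (-0.00520 to 0.29), Uhg3 (-0.47 to 0.19), srp (-1.89 to 0.96), stg (-0.0879 to 0.24), zld (-4.78 to 0.59), plu (-0.52 to 0.0946) and BigH1 (-1.44 to 0.24). The cause was not tested. Precision is limited by 2 libraries per stage and, below about 1 ppm, by a few reads.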

Other observations

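The 4 groups below were put together after the values had been seen, so their counts describe and carry no test. Of 55 genes of DNA replication and repair tested, 25 (45.5%) were lower, 30 did not pass and 0 were higher, against 7.79% and 2.56% of all genes tested, with a median log2 difference of -0.82. DNApol-eta, the translesion polymerase, was at 49.1 and 84.1 ppm at NC 9-10 and at 8.41 and 5.28 ppm at syncytial blastoderm (-3.09 ± 0.45, adjusted p = 0.0159). Brca2 was at 60.6 and 102 ppm and then at 16.1 and 12.9 ppm (-2.37 ± 0.31, adjusted p = 0.0132), and DNApol-delta, a replicative polymerase, at 74.9 and 116 ppm and then at 17.7 and 21.2 ppm (-2.21 ± 0.28, adjusted p = 0.0114). Within one complex the members did not go together: Mcm3 fell, while Mcm7 was at 244 and 254 ppm and then at 325 and 375 ppm (adjusted p = 0.179). Of 20 cytoplasmic aminoacyl-tRNA synthetase genes 7 (35.0%) were lower and 0 higher (median -0.62), with beta-PheRS at 50.9 and 62.3 ppm and then at 12.1 and 18.5 ppm (-1.84 ± 0.27, adjusted p = 0.0166).

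Among rising genes, 12 of 14 proneural and neuroblast genes were higher (85.7%, against 2.56% of all genes tested) and 0 lower (median 3.95). Neuroblasts form only later. The list holds sc, already counted among the sex determination genes, so it in part repeats a list above. l(1)sc was at 2.57 and 0.433 ppm and then at 88.1 and 58.8 ppm (5.01 ± 0.60, adjusted p = 0.0102). ato, known for sense organs, was at 0.922 and 0.155 ppm, then at 10.9 and 13.8 ppm (3.16 ± 0.51, adjusted p = 0.0202), and at cellular blastoderm at 2.26 and 0.314 ppm, back near its starting level. Of 6 genes of ecdysone synthesis 4 were higher (66.7%), spo, phm, dib and sad. The gene spo, already counted among the short early zygotic genes, was at 0.0566 and 0.0764 ppm and then at 21.5 and 25.5 ppm (4.52 ± 0.26, adjusted p = 0.00167).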
